A study of Mus musculus with 109 samples.

Results

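The 10 genes described here form the antioxidant arm of the transcription factor NRF2 together with the metallothioneins. Nfe2l2 encodes NRF2 itself. Nqo1, Gclm, Gclc, Txnrd1, Srxn1 and Gsr encode antioxidant enzymes that NRF2 is known to activate, and Mt1, Mt2 and Mt3 encode metallothioneins. They are defined by their symbols and are 10 of the 37315 genes in a table of RNA-seq counts from mouse retina. All 10 were tested in every comparison, and the lowest count of a member in any retina was 57.

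RNA was measured in whole retinas after intravitreal injection, 109 retinas from 64 mice of 2 to 4 months, of which 45 mice gave both eyes. Batch 1 held 86 retinas of WT C57BL/6J mice. At day 2 after injection these were 31 retinas given PBS, the injection control, 8 given TNF, 9 given IL1A and 10 given both cytokines (IL1A+TNF). At day 14 there were 7 PBS and 6 TNF retinas, and at day 35 there were 6 PBS and 9 TNF retinas. Batch 2 held 23 retinas of day 2, with 5 WT PBS, 6 WT IL1A+TNF, 6 Sarm.KO PBS and 6 Sarm.KO IL1A+TNF retinas. Sarm.KO mice lack the axon degeneration factor SARM1 in the whole animal, not only in the retina. No uninjected retina was measured, and most PBS retinas were the other eye of a mouse given a cytokine. Each library holds all cell types of a retina, so fewer cells of a type and less RNA per cell cannot be told apart.

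Under resting conditions NRF2 is held in the cytoplasm by KEAP1 and degraded, and oxidants or electrophiles release it to bind antioxidant response elements in the promoters of its targets. Its targets make glutathione (GCLC and GCLM), recycle glutathione and thioredoxin (GSR and TXNRD1), repair oxidised peroxiredoxins (SRXN1) and reduce quinones (NQO1). Metallothioneins are small cysteine-rich proteins that bind zinc and copper. Mt1 and Mt2 are induced through metal response elements by the zinc sensor MTF1 and also by glucocorticoids and STAT3, while Mt3 is the form typical of the nervous system and in the retina metallothioneins are found mainly in glia.

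The promoter sequences below were chosen by the responses of their genes. They are those of the 3 neighbouring metallothionein genes, of Gclm, which rose with IL1A+TNF but did not pass the test with IL1A alone, and of Nqo1, the member that fell. Each is the 250 bases before the RefSeq start site on GRCm38.p6, read 5′ to 3′ in the direction of the gene. Capitals mark a match on either strand to an antioxidant response element core (ARE, TGACNNNGC) or a metal response element core (MRE, TGCACNC or TGCGCNC). The ARE core is present in 10.2% of 32851 mouse promoter windows of this length. The MRE core is present at least once in 21.4%, at least 2 times in 5.17% and at least 3 times in 1.26%.
Mt2, chr8:94172368-94172617, + strand: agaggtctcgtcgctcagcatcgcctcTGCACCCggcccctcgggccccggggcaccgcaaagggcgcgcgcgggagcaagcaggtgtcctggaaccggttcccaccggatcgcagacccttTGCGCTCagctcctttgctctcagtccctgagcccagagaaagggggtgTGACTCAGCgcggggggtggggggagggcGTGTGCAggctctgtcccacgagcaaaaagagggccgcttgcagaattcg
Mt1, chr8:94178839-94179088, + strand: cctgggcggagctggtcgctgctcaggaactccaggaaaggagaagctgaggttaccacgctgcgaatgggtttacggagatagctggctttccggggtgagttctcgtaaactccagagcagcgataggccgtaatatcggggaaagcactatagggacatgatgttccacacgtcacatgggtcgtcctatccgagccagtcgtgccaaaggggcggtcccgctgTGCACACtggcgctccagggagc
Mt3, chr8:94152357-94152606, + strand: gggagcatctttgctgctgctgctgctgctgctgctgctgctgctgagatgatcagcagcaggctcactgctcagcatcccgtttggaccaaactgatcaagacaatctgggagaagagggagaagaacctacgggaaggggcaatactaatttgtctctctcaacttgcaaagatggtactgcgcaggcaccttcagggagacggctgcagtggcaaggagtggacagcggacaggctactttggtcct
Gclm, chr3:122245307-122245556, + strand: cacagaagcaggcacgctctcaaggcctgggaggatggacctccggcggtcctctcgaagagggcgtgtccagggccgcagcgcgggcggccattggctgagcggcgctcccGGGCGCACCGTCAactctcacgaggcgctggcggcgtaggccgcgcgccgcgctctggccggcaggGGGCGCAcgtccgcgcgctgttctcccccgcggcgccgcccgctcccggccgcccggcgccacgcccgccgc
Nqo1, chr8:107403206-107403455, − strand: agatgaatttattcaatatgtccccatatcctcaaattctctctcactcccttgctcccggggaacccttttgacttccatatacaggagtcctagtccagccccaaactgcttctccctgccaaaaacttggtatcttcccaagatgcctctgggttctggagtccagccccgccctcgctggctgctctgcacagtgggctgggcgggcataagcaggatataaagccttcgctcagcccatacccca

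The Mt2 window holds 3 MRE cores and 1 ARE core, the Mt1 window holds 1 MRE core, and the Mt3 and Nqo1 windows hold neither. In Gclm, 1 ARE core and 1 of 2 MRE cores overlap. Of the windows not printed, that of Nfe2l2 holds 1 ARE core, that of Srxn1 holds 1 MRE core, and 1 of the 3 windows of Txnrd1 holds 1 ARE core. These are matches of letters and not measured binding sites. Of the other members on GRCm38, Nfe2l2 lies at chr2:75675513-75704641 (− strand), Srxn1 at chr2:152105516-152111376, Gclm at chr3:122245557-122270732, Gsr at chr8:33652523-33698163, Nqo1 at chr8:107388225-107403206 (− strand), Gclc at chr9:77754535-77794485 and Txnrd1 at chr10:82833951-82897712. The 3 metallothionein genes lie near each other on chromosome 8 of GRCm38, with Mt3 at chr8:94152607-94154146, Mt2 at chr8:94172664-94173568 and Mt1 at chr8:94179082-94180327.

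Labels and libraries were checked before the members were compared. Sarm1 was at 26.2 to 53.2 CPM in the 12 Sarm.KO retinas and at 76.4 to 136 CPM in the 97 WT retinas, without overlap (CPM, the count scaled to the library's size with TMM factors). Totals were 30014757 to 79064488 counts per retina, with a median of 39374202, and were higher in batch 2. Summed rod markers were at 34419 to 53879 CPM in WT PBS retinas of day 2 in batch 1. The summed pigment epithelium list (Rpe65, Rgr, Ttr, Best1 and Rlbp1) was at 179 to 418 CPM in the same retinas. Rlbp1 is also in the Muller glia list, so this sum is not specific to pigment epithelium. Summed lens genes (Cryaa, Crybb2, Crygs, Mip and Lim2) had a median of 4.96 CPM over the 109 retinas but exceeded 100 CPM in 15 of them, reaching 5186 CPM. For the members, values without these 15 retinas are given beside calls that were lost without them.

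In WT PBS retinas at day 2 the members differed widely in level. Per kb of exon, Mt2 was highest at 58.9 ± 21.9 CPM per kb (SD, n = 31), followed by Mt1 at 33.2 ± 9.50, Srxn1 at 21.5 ± 1.78 and Gclc at 14.0 ± 0.682 CPM per kb. Nfe2l2, Gsr, Txnrd1 and Gclm followed at 9.54 ± 0.843, 9.15 ± 1.07, 9.04 ± 1.09 and 8.02 ± 0.708 CPM per kb, and the first 3 of these lay within their SDs of each other. Mt3 was at 6.02 ± 0.973 and Nqo1 was lowest at 2.64 ± 0.593 CPM per kb. Mt2 and Mt1 thus had both the highest levels and the widest spread between control retinas, while Gclc had the narrowest relative spread.

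To determine how combined cytokine injection changed these genes, the 10 WT IL1A+TNF retinas were compared with the 31 WT PBS retinas of batch 1 at day 2. All 10 members passed the limma test (Benjamini-Hochberg adjusted p under 0.05 over 19548 genes), 9 of them higher and Nqo1 lower. Over all genes, 50.4% passed this test and 24.9% passed it with a higher level, so a call by itself was common in this comparison. The median log2 fold change was 0.35 over the members and −0.02 over all genes tested.

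Mt2 changed most. Its level was 10.8 to 68.9 CPM in PBS retinas (median 30.4) and 53.8 to 110 CPM in IL1A+TNF retinas (median 79.6). Of the IL1A+TNF retinas, 8 of 10 exceeded every PBS retina, and the groups overlapped only at the top of the PBS range. The log2 fold change was 1.29 (SE 0.16, limma adjusted p = 1.43e-09). Mt1 moved in the same way, from 16.6 to 65.5 CPM (median 41.7) to 60.9 to 118 CPM (median 76.3), a log2 fold change of 0.97 (SE 0.14, limma adjusted p = 3.5e-08). Mt3 rose less, from 4.29 to 8.90 CPM (median 6.39) to 6.57 to 12.6 CPM (median 7.75), a log2 fold change of 0.34 (SE 0.079, limma adjusted p = 2.51e-04). All 10 treated retinas lay above the Mt3 mean of the PBS retinas, but only 2 lay above the highest of them.

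Gsr, which encodes glutathione reductase, was the member whose groups did not overlap at all. It was at 20.2 to 34.3 CPM in PBS retinas (median 25.0) and at 36.9 to 102 CPM in IL1A+TNF retinas (median 43.2). The log2 fold change was 0.94 (SE 0.088, limma adjusted p = 1.32e-13), the smallest adjusted p among the members. Leaving out the mouse of the highest retina, at 102 CPM, gave 0.83 on this scale.

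The other targets rose by smaller amounts. Txnrd1, which encodes cytosolic thioredoxin reductase, was at 49.9 to 81.4 CPM with PBS (median 62.7) and 76.3 to 106 CPM with IL1A+TNF (median 87.6), a log2 fold change of 0.48 (SE 0.058, limma adjusted p = 3.2e-10). Gclm, the modifier subunit of the enzyme that starts glutathione synthesis, was at 39.0 to 57.7 CPM (median 50.1) and 52.1 to 71.9 CPM (median 65.1), a log2 fold change of 0.33 (SE 0.045, limma adjusted p = 7.42e-09). In both genes at least 7 of the 10 treated retinas lay above every PBS retina. Srxn1, for sulfiredoxin, was at 50.2 to 67.7 CPM (median 61.1) and 64.2 to 78.995 CPM (median 72.7), a log2 fold change of 0.26 (SE 0.039, limma adjusted p = 1.17e-07). Gclc, the catalytic partner of Gclm, stayed nearly level, at 48.3 to 59.1 CPM (median 52.8) and 52.6 to 58.7 CPM (median 54.8). Its log2 fold change was 0.07 (SE 0.024, limma adjusted p = 0.00828), and no treated retina lay outside the PBS range. The call for Gclc was lost, with limma adjusted p = 0.312, when only differences within mice were used.

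Nfe2l2 itself rose modestly. It was at 30.1 to 42.9 CPM with PBS (median 36.2) and 39.2 to 54.4 CPM with IL1A+TNF (median 46.3), with 8 of 10 treated retinas above all PBS retinas. This was a log2 fold change of 0.35 (SE 0.046, limma adjusted p = 4.02e-09).

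Nqo1, the quinone reductase often used as a marker of NRF2 activity, went the other way. It was at 2.91 to 6.59 CPM with PBS (median 3.88) and 1.45 to 4.81 CPM with IL1A+TNF (median 3.11). Of the treated retinas, 9 of 10 lay below the PBS mean and 5 lay below every PBS retina. The log2 fold change was −0.39 (SE 0.13, limma adjusted p = 0.00874). It did not pass the test within mice (log2 fold change −0.26, limma adjusted p = 0.172) or without the retinas with lens genes (−0.30, limma adjusted p = 0.0742).

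**Figure D1:**
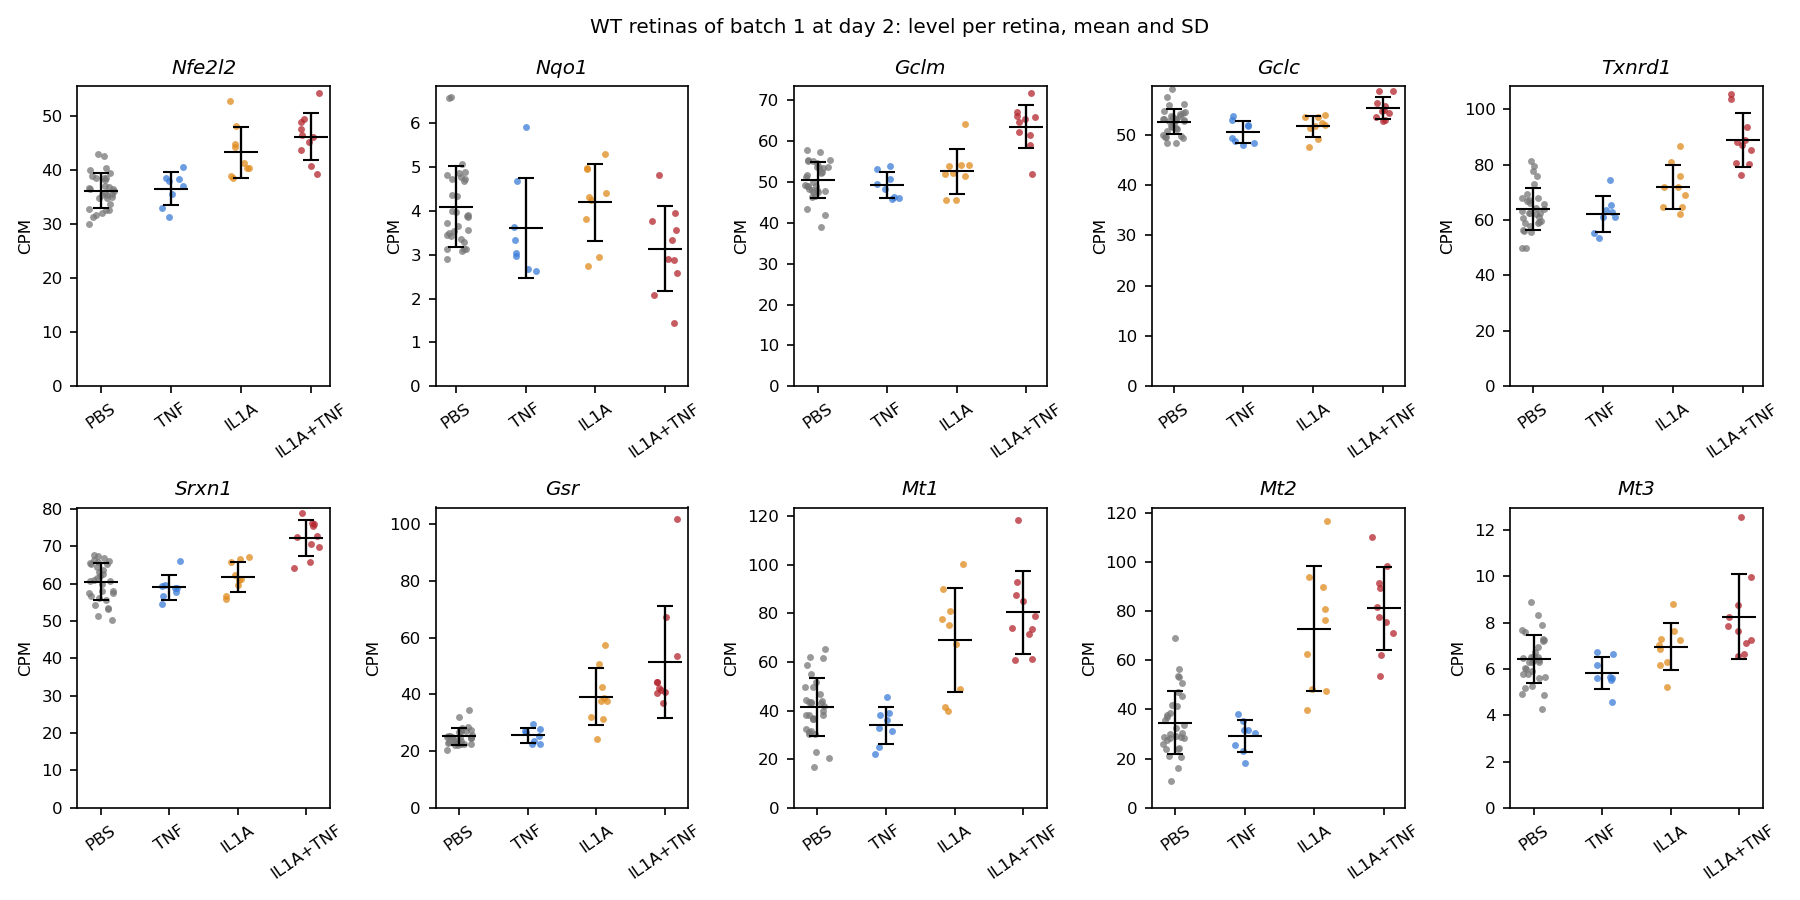
Level of each member in WT retinas of batch 1 at day 2, in CPM on the vertical axis, with 31 PBS, 8 TNF, 9 IL1A and 10 IL1A+TNF retinas as points and the mean and SD as bars. The Gsr points of PBS (up to 34.3 CPM) and IL1A+TNF (from 36.9 CPM) do not overlap, and Nqo1 is the member with its lowest mean after IL1A+TNF (3.13 CPM).

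IL1A alone was compared with the same PBS retinas to find which members responded without TNF, so both comparisons share their 31 controls. In the 9 IL1A retinas 5 of 10 members passed the limma test, all of them higher, against 21.4% of all genes, or 12% counted as higher. The median log2 fold change was 0.15 over the members and −0.01 over all genes. Mt2 was at 39.7 to 117 CPM (median 76.2), a log2 fold change of 1.09 (SE 0.17, limma adjusted p = 1.02e-06), and all 9 retinas lay above the PBS mean. Mt1 was at 39.6 to 100 CPM (median 75.1), with a log2 fold change of 0.74 (SE 0.15, limma adjusted p = 9.17e-05). Gsr was at 24.2 to 57.4 CPM (median 37.8), with a log2 fold change of 0.62 (SE 0.094, limma adjusted p = 5.67e-07). In these 3 genes 5 or 6 of the 9 retinas lay above every PBS retina, and the lowest IL1A retinas lay within the PBS range.

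Nfe2l2 rose by a log2 fold change of 0.26 (SE 0.049, limma adjusted p = 4.23e-05) after IL1A, at 38.5 to 52.9 CPM (median 41.3). Txnrd1 was at 62.1 to 86.7 CPM (median 71.8), a log2 fold change of 0.17 (SE 0.060, limma adjusted p = 0.0321). The Txnrd1 call was the least stable of these 5 and was lost when any of the IL1A mice 60216, 60217, 60227 or 60637 was left out (log2 fold change 0.14 to 0.17, limma adjusted p = 0.0525 to 0.140) or without the retinas with lens genes (0.17, limma adjusted p = 0.0747). When only differences within mice were used, neither Nfe2l2 (0.24, limma adjusted p = 0.0538) nor Txnrd1 (0.14, limma adjusted p = 0.414) passed. Gclm (0.06), Gclc (−0.02), Srxn1 (0.04), Nqo1 (0.03) and Mt3 (0.13) did not pass on this log2 scale. The 95% intervals of these 5 were −0.04 to 0.16 for Gclm, −0.07 to 0.03 for Gclc, −0.05 to 0.12 for Srxn1, −0.22 to 0.28 for Nqo1 and −0.04 to 0.31 for Mt3.

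TNF alone at day 2 changed none of the 10 members in the limma test, where 0.655% of all genes passed, and none reached an unadjusted p under 0.05. edgeR and DESeq2 also called 0 of 10. The median log2 fold change over the members was −0.04. Gsr in the 8 TNF retinas was at 22.5 to 29.6 CPM (median 25.9) and Mt2 was at 18.3 to 38.2 CPM (median 31.0), both inside the PBS range. The smallest p was that of Gclc (log2 fold change −0.05, 95% interval −0.10 to 0.00, limma adjusted p = 0.669). The intervals of the metallothioneins were wide, from −0.54 to 0.25 for Mt2 and from −0.57 to 0.09 for Mt1.

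What the cytokines added to each other was read from the retinas given both. Against TNF, 9 of 10 members were higher with IL1A+TNF (39% of all genes called, 20% higher), with log2 fold changes from 0.12 for Gclc to 1.43 for Mt2. Nqo1 did not pass (−0.20, limma adjusted p = 0.366). Against IL1A, 4 of 10 members were higher (10.1% of all genes called, 5.39% higher). These were Txnrd1 at a log2 fold change of 0.31 (SE 0.073, limma adjusted p = 0.00390), Gclm at 0.27 (SE 0.058, limma adjusted p = 0.00101), Srxn1 at 0.22 (SE 0.050, limma adjusted p = 0.00198) and Gclc at 0.10 (SE 0.031, limma adjusted p = 0.0340). Nqo1 had the largest difference, −0.42 (SE 0.16, limma adjusted p = 0.0784), with 9 of 10 IL1A+TNF retinas below the IL1A mean, and passed in the joint fit of batch 1 (limma adjusted p = 0.0444). Mt1 and Mt2 did not pass, with differences of 0.23 (95% interval −0.12 to 0.59) and 0.19 (−0.22 to 0.60) on the log2 scale. Gsr lay near the threshold at 0.32 (limma adjusted p = 0.0540) and passed it in 6 of the other analyses, with adjusted p from 0.0136 to 0.0499. Without the retinas with lens genes Gclc did not pass (0.08, limma adjusted p = 0.190).

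IL1A compared directly with TNF raised 4 of 10 members (9.08% of all genes called, 5.39% higher). The log2 differences were 1.24 for Mt2, 0.98 for Mt1, 0.59 for Gsr and 0.23 for Nfe2l2, with limma adjusted p from 3.55e-04 to 0.0139.

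The departure from additivity, meaning the IL1A+TNF effect minus the sum of the single effects on the log2 scale, was positive and past the limma threshold for Txnrd1, Gclm, Srxn1 and Gclc, 4 of 10 members against 3.6% of all genes (1.78% higher). It was 0.34 for Txnrd1 (SE 0.097, limma adjusted p = 0.0375, and 0.0603 without a filter on low counts), 0.30 for Gclm (SE 0.077, limma adjusted p = 0.0183), 0.25 for Srxn1 (SE 0.066, limma adjusted p = 0.0218) and 0.15 for Gclc (SE 0.040, limma adjusted p = 0.0302). Without the retinas with lens genes the sizes were 0.34, 0.28, 0.28 and 0.13, but only Srxn1 still passed (limma adjusted p = 0.0486), where 0.63% of all genes did. For the metallothioneins the interval of the departure was wide, −0.23 to 0.91 for Mt2 and −0.01 to 0.96 for Mt1. Between male and female retinas of day 2 in batch 1, 0 of 10 members were called by limma, edgeR or DESeq2 (0.363% of all genes in limma). Gsr was the only member with an unadjusted p under 0.05, at a log2 difference of −0.20 in males (95% interval −0.34 to −0.06, p = 0.00695, limma adjusted p = 0.268).

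**Figure D2:**
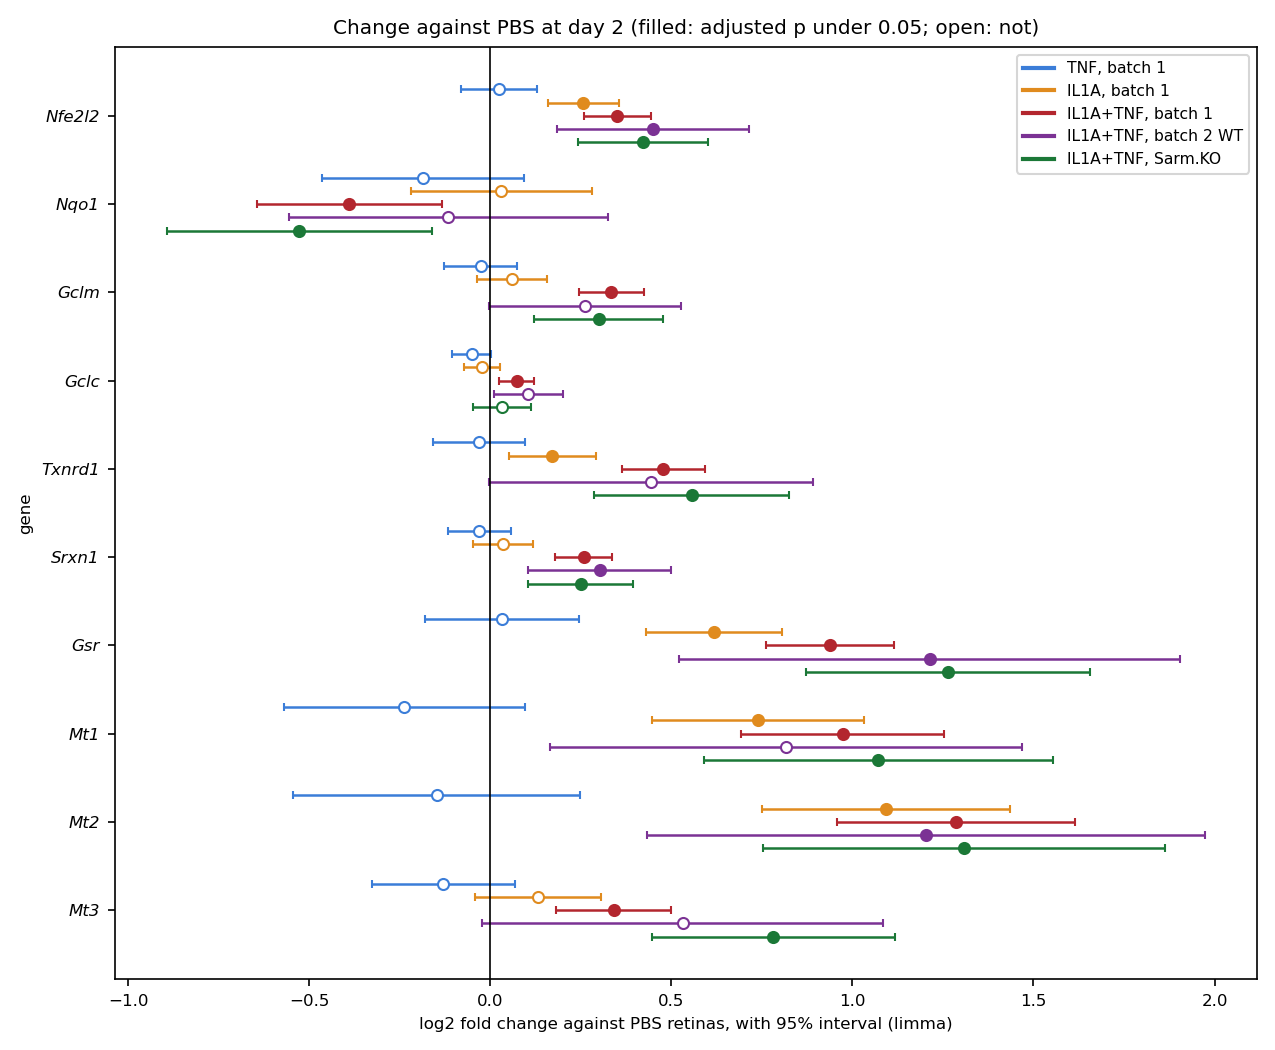
Log2 fold change of each member against PBS retinas at day 2 on the horizontal axis, with limma 95% intervals as bars, for TNF, IL1A and IL1A+TNF in batch 1, IL1A+TNF in WT mice of batch 2 and IL1A+TNF in Sarm.KO mice, filled where the adjusted p was under 0.05. No TNF point is filled, and Mt2 lies between 1.09 and 1.31 in the other 4 comparisons.

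Eyes of the same mouse were then compared. In the 8 mice with IL1A+TNF in 1 eye and PBS in the other, Nfe2l2, Txnrd1, Srxn1, Gsr, Mt1 and Mt2 were higher in the treated eye of all 8, and Gclm and Mt3 in 7. Gclc was higher in 6 of 8 mice. Nqo1 was lower in 7 of 8, at 1.45 CPM against 3.98 CPM in mouse 60212, but in 3 of the 7 the eyes hardly differed, at 3.33 against 3.36, 2.90 against 2.91 and 3.94 against 4.004 CPM. The mean log2 difference between the eyes was 1.08 ± 0.397 for Mt2 and 0.90 ± 0.478 for Gsr (SD, n = 8). Gsr differed from 0.21 in mouse 60780, at 36.9 CPM against 31.9 CPM, to 1.85 in mouse 60212, at 102 CPM against 28.3 CPM. The direction of Gsr was thus shared by the 8 mice while its size varied widely.

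Cell type markers moved with these groups. In IL1A+TNF retinas the 4 neutrophil markers tested (of S100a8, S100a9, Mpo, Retnlg, Cxcr2 and Elane) were all higher, and their summed level rose from 0.638 to 81.4 CPM with PBS (median 7.99) to 48.0 to 450 CPM (median 69.2). All 5 monocyte markers rose (median sum 10.01 to 51.9 CPM), as did all 3 astrocyte markers (119 to 302 CPM). Of 5 microglia markers 3 rose and 1 fell (80.3 to 132 CPM), and of 6 Muller glia markers 2 rose and 2 fell (3602 to 2824 CPM). Markers of rods fell in 5 of 6 genes, of ganglion cells in 7 of 7, and of pigment epithelium in 4 of 5 (median sum 269 to 157 CPM). Over all genes 50.4% were called in this comparison and 24.9% were called higher. Median sums also went from 907 to 283 CPM for cones, 1024 to 837 CPM for bipolar cells and 503 to 400 CPM for amacrine and horizontal cells. The endothelium sum went from 36.1 to 57.1 CPM. With IL1A the neutrophil sum was 29.3 to 154 CPM, and with TNF it was 0.282 to 16.7 CPM. In TNF retinas, where no member passed, the median monocyte sum was 37.2 CPM (range 1.03 to 58.6 CPM) and the median microglia sum 116 CPM against 80.3 CPM with PBS, with 0 of 5 monocyte markers called by limma, and 2 of 5 microglia markers called higher that were not called within mice or without the retinas with lens genes. The part of these cells in the changes of the members was not tested.

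Gsr, Mt1 and Mt2 followed the neutrophil sum among control eyes, and Mt3 did not pass (r = 0.28, rho = 0.25, permutation p = 0.126, adjusted 0.336, n = 31). Only the neutrophil and pigment epithelium sums were related to the members, so these relations are not shown to be particular to neutrophils. The astrocyte sum also varied between these retinas (65.2 to 204 CPM), and Gfap of the astrocyte list had r = 0.85 with Mt2. Over the 31 PBS retinas of day 2, of the 20 relations computed between the 10 members and the neutrophil and pigment epithelium sums on the log2 scale, 4 passed. The share of all genes that follow these sums in the same retinas is not given here, so this count has no background beside it. Mt2 correlated with the neutrophil sum at r = 0.70 (rho = 0.62, permutation p = 1e-05, adjusted 2e-04, n = 31), and without the 2 retinas farthest from the median sum at r = 0.62. Gsr gave r = 0.69 (rho = 0.64, permutation p = 3e-05, adjusted 3e-04) and 0.59 without those 2, and Mt1 gave r = 0.65 (rho = 0.60, permutation p = 8e-05, adjusted 5.33e-04) and 0.56 without those 2. The remaining relation was that of Nqo1 with the pigment epithelium sum, r = 0.56 (rho = 0.44, permutation p = 9e-04, adjusted 0.0045, adjusted for rho 0.0750) and 0.45 without the 2 farthest retinas. That sum shares Rlbp1 with the Muller glia list. A p of 1e-05 is the smallest that the permutations can give. Among the IL1A+TNF retinas the highest Gsr level was in the retina with the highest neutrophil sum (102 CPM at a sum of 450 CPM), and the next highest in the next (67.2 CPM at 285 CPM). The other 8 retinas had Gsr at 36.9 to 53.6 CPM and sums of 48.0 to 124 CPM.

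**Figure D3:**
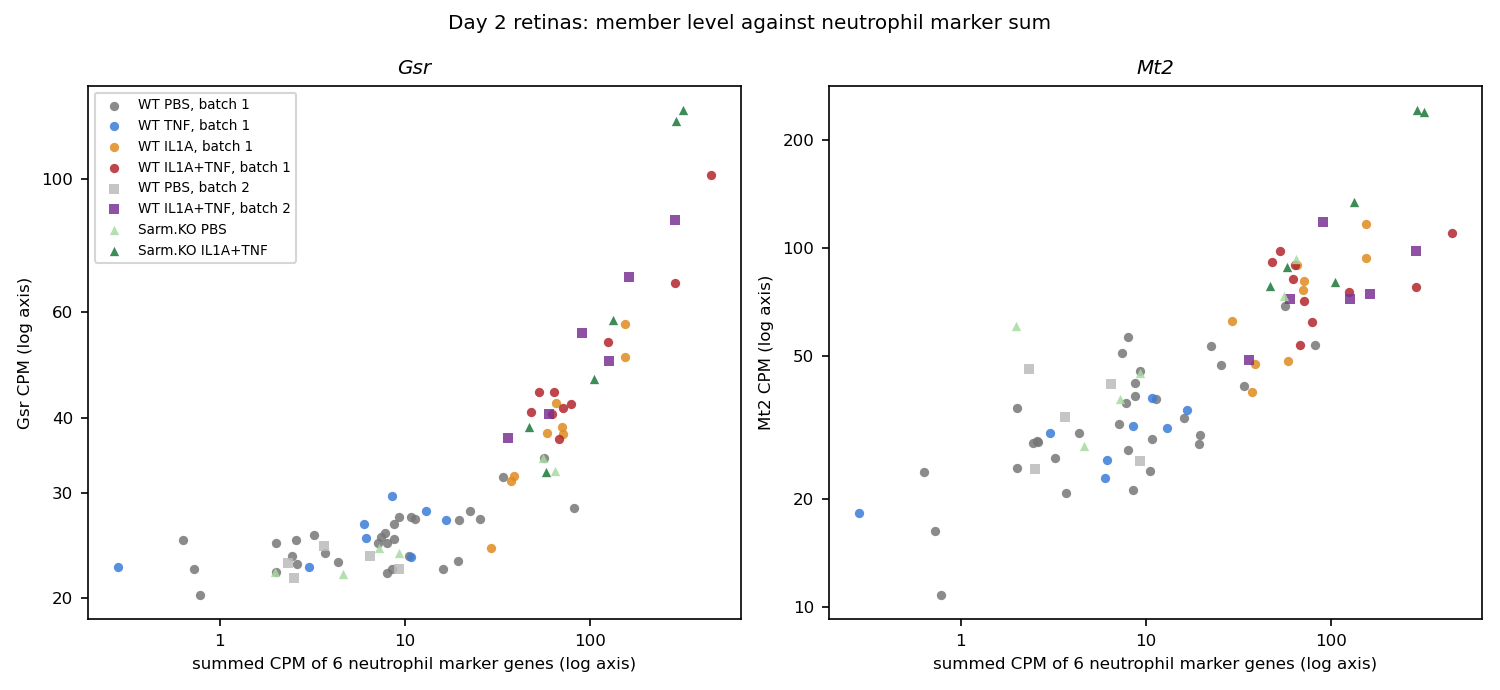
Level of Gsr and Mt2 in every day 2 retina, in CPM on a log axis, against the summed CPM of 6 neutrophil marker genes on a log axis, colored by group. The retinas with the highest Gsr levels, 2 Sarm.KO retinas at 131 and 125 CPM, have sums of 318 and 291 CPM, and TNF retinas lie among the PBS retinas.

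Members varied together in control eyes. Of the 45 pairs of members over the 31 PBS retinas, 44 had a positive Pearson r and 30 passed after adjustment over the 45 pairs, all of them positive. Of all pairs of 14874 genes in these retinas 49.7% had a positive r and 17.7% had an r above 0.3, the latter reached by 36 of the 45 member pairs. Mt1 and Mt2 were the closest pair (r = 0.96, rho = 0.96, permutation p = 1e-05, adjusted 1.5e-04, n = 31; r = 0.94 without the 2 farthest retinas). Nfe2l2 and Txnrd1 gave r = 0.75 (rho = 0.69, permutation p = 1e-05, adjusted 1.5e-04; 0.66 without 2 retinas), and Gsr and Mt2 gave r = 0.75 (rho = 0.72, permutation p = 2e-05, adjusted 1.8e-04; 0.74 without 2 retinas). Nqo1 followed Nfe2l2 (r = 0.54, rho = 0.61, permutation p = 0.00178, adjusted 0.00501; 0.55 without 2 retinas) but not Mt2 (r = −0.02, rho = 0.05, permutation p = 0.903, adjusted 0.903; −0.02 without 2 retinas). As a description over the same retinas and 14874 genes, the genes most like Mt2 by Pearson r were Mt1, Pdpn (0.87), Bcl6 (0.86), Mob3c (0.86) and Gfap (0.85). Those most like Nfe2l2 were Sdc4 (0.85), Rab31 (0.83), Medag (0.82), Bag3 (0.81) and Egr1 (0.80), and those most like Nqo1 were Degs1 (0.84), Myl9 (0.82), Aldh2 (0.82), Sytl2 (0.82) and Rapsn (0.81).

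Other genes of these pathways were described from lists, beside a median log2 fold change of −0.02 over all genes for IL1A+TNF at day 2, with 24.9% of all genes called higher and 50.4% called in all. Of 20 other NRF2 targets 11 rose and 1 fell (median 0.31). Hmox1, the heme-degrading oxygenase, rose most, from 8.79 ± 4.20 CPM (SD, n = 31) to 139 ± 25.5 CPM (SD, n = 10), a log2 fold change of 4.05 (SE 0.20, limma adjusted p = 9.97e-24). Abcc3, an organic anion exporter, rose by 2.79 (SE 0.20, limma adjusted p = 1.29e-17) and Ftl1, ferritin light chain, by 1.44 (SE 0.11, limma adjusted p = 4.66e-17) on the log2 scale.

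Of 13 regulators of NRF2, 5 rose and 2 fell (median 0.00). Mafk, a small MAF partner of NRF2, rose by 0.46 and Bach1, which competes with NRF2 for its sites, by 0.42, while Btrc, an adaptor for NRF2 degradation, fell by 0.27 on the log2 scale (limma adjusted p from 1.22e-10 to 4.08e-09). Keap1 did not pass (0.05, limma adjusted p = 0.0898). Of 30 glutathione genes 10 rose and 7 fell (median 0.05). Ggt5, which cleaves glutathione conjugates, rose by 1.51, the peroxidase Gpx1 by 0.90 and the transferase Gstm4 by 0.35 (limma adjusted p from 5.88e-15 to 4.22e-06). The cystine transporter gene Slc7a11 did not pass (0.47, limma adjusted p = 0.130). Of 17 genes of thioredoxin, peroxiredoxins, superoxide dismutases and catalase 10 rose and 2 fell (median 0.16), with Txnip, the thioredoxin inhibitor, up by 2.11, Prdx1 by 0.50 and Txn1 by 0.47 (limma adjusted p from 6.29e-16 to 8.48e-08).

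Of 9 genes of NADPH supply 5 rose and 1 fell (median 0.21), with Pgd of the pentose phosphate pathway up by 0.46, Mthfd1 of folate metabolism up by 0.24 and malic enzyme Me1 at −0.38 (limma adjusted p from 7.17e-14 to 5.07e-07). Of 23 metal handling genes tested 10 rose and 2 fell (median 0.03). The copper pump gene Atp7b was at −0.98, and the zinc importer genes Slc39a1 and Slc39a14 were at 0.59 and 0.29 (limma adjusted p from 2.61e-14 to 2.41e-08). Mtf1, the zinc sensor, did not pass (0.01, limma adjusted p = 0.910), and Slc30a1, its zinc exporter target, was at −0.20 (SE 0.052, limma adjusted p = 0.00111). After TNF alone 2 genes of these lists passed, Gpx3 at −1.91 (limma adjusted p = 0.00822) and Abcc3 at 1.17 (limma adjusted p = 0.0142). Neither passed without the retinas with lens genes (−2.12 and 1.02, limma adjusted p = 0.0511 and 0.272) or within mice (−1.69 and 1.38, limma adjusted p = 0.472 and 0.434). In these fits limma called 0% of all genes, and an unadjusted p under 0.05 was reached by 1485 and 1418 of them.

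At later days TNF was compared with PBS within each day. At day 14 and at day 35 limma called 0 of 10 members and 0% of all genes, and no member reached an unadjusted p under 0.05. Over all genes 838 at day 14 and 871 at day 35 had an unadjusted p under 0.05, and edgeR and DESeq2 called 0 genes at both days. Mt2 at day 14 was at 8.17 to 16.8 CPM in the 7 PBS retinas (median 12.01) and 10.6 to 16.6 CPM in the 6 TNF retinas (median 13.9), and at day 35 at 8.83 to 13.2 CPM in 6 PBS retinas (median 11.6) and 8.80 to 16.3 CPM in 9 TNF retinas (median 11.1). PBS and TNF retinas overlapped for each of the 10 members at both days. In the 4 mice of day 14 with paired eyes, Mt3 was lower in the TNF eye of all 4 (mean log2 difference −0.20, SD 0.038). Srxn1 was also lower in all 4 (−0.14, SD 0.11), and the other members went both ways. With mouse as a fixed block limma called 0% of all genes at day 14. The 95% interval of the log2 fold change of Mt2 was −0.15 to 0.38 at day 14 and −0.14 to 0.18 at day 35. The TNF effect at day 14 or day 35 minus that at day 2 was called for 0 of 10 members (0% of all genes each).

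The level in PBS retinas itself depended on the day. An F test over the 3 days in limma passed for 6 of 10 members, where 36.6% of all genes passed. Mt2 was at a median of 30.4 CPM at day 2, 12.01 CPM at day 14 and 11.6 CPM at day 35, with log2 differences from day 2 of −1.46 (SE 0.25) and −1.53 (SE 0.26, limma adjusted p = 1.73e-08). Mt1 followed, from 41.7 CPM to 19.2 and 17.6 CPM, with −1.01 (SE 0.18) and −1.11 (SE 0.19, limma adjusted p = 3.93e-08). Every PBS retina of day 14 and day 35 was at or below 16.8 CPM for Mt2, and at day 2 the lowest retinas reached into that range.

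Txnrd1 was lower by 0.24 and 0.26 on the log2 scale at days 14 and 35 (limma adjusted p = 1.52e-04), Nfe2l2 by 0.12 and 0.26 (limma adjusted p = 1.86e-04) and Gclm by 0.11 and 0.16 (limma adjusted p = 0.0167). Nqo1 did not follow this course. It was at 2.84 to 6.75 CPM at day 14 (median 3.85) and 2.03 to 3.02 CPM at day 35 (median 2.62), with log2 differences from day 2 of 0.01 (SE 0.14) and −0.66 (SE 0.17, limma adjusted p = 0.00293). Gclc, Srxn1, Gsr and Mt3 did not pass, with log2 differences from −0.23 to 0.11. Marker sums moved with the day as well. In PBS retinas the neutrophil sum had a median of 7.99 CPM at day 2, 0.112 CPM at day 14 and 0.141 CPM at day 35, and the astrocyte sum one of 119, 50.8 and 30.8 CPM, while the Muller glia sum was at 3602, 4287 and 4086 CPM. Their part in the lower levels of Mt1 and Mt2 was not tested, and with different mice at each day and no uninjected retina, day and other differences between these mice cannot be told apart.

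**Figure D4:**
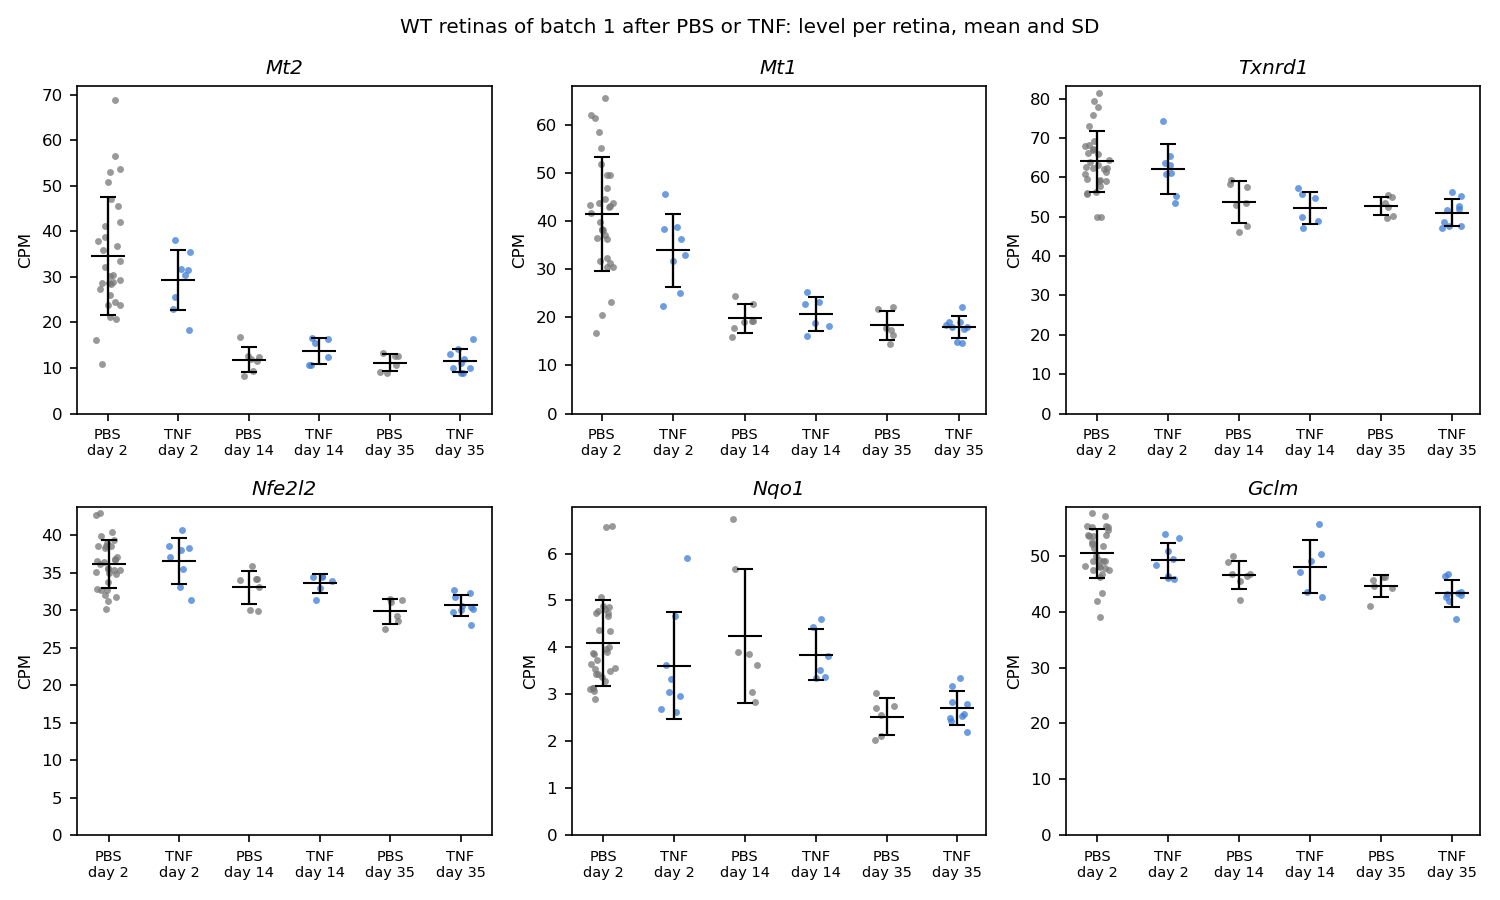
Level of the 6 members that differed across days in PBS retinas, in CPM on the vertical axis, for PBS and TNF retinas of WT mice at days 2, 14 and 35, with retinas as points and the mean and SD as bars. Mt2 falls from a PBS mean of 34.6 CPM at day 2 to 11.8 and 11.2 CPM, with the TNF retinas of each day at similar levels.

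In the second batch the same treatment was given to other WT mice. In batch 2 alone, 4 of 10 members passed limma between 6 IL1A+TNF and 5 PBS retinas, all higher, against 20.9% of all genes (13.3% higher). Gsr was at 21.6, 22.4, 22.8, 23.5 and 24.4 CPM with PBS and at 37.1 to 85.5 CPM with IL1A+TNF (median 52.5), a log2 fold change of 1.21 (SE 0.33, limma adjusted p = 0.0131). Mt2 was at 24.1, 25.5, 33.8, 41.7 and 45.9 CPM with PBS and 48.8 to 118 CPM with IL1A+TNF (median 73.1), a log2 fold change of 1.203 (SE 0.37, limma adjusted p = 0.0254). The groups did not overlap in either gene.

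Nfe2l2 (0.45, SE 0.13, limma adjusted p = 0.0160) and Srxn1 (0.30, SE 0.095, limma adjusted p = 0.0289) were the other 2 calls on the log2 scale in this batch, also without overlap. The remaining members had log2 fold changes of 0.82 for Mt1, 0.53 for Mt3, 0.44 for Txnrd1, 0.26 for Gclm, 0.11 for Gclc and −0.12 for Nqo1 (95% interval −0.56 to 0.32). The Txnrd1 groups did not overlap either, at 61.8 to 67.8 CPM with PBS and 81.5 to 112 CPM with IL1A+TNF. This fit held all 23 retinas of batch 2, so its estimate of the spread was shared with the Sarm.KO retinas. When only differences within mice were used, 8 of 10 members passed, where 29.6% of all genes did. With 1 mouse left out, 1 to 4 passed, with 1 call without mouse 61720 and 2 calls without mouse 61719, 61927 or 62224. Shares of all genes in these fits are not given here. Gsr passed each time. Mt2 did not pass without any 1 of mice 61719, 61720, 61721, 61927 or 62224 (log2 fold change 1.12 to 1.31, limma adjusted p = 0.0510 to 0.0720). Srxn1 did not pass without 61719, 61720, 61927 or 62224 (0.27 to 0.30, limma adjusted p = 0.0594 to 0.102), nor Nfe2l2 without 61720 (0.44, limma adjusted p = 0.0560). Nqo1 was lower in the treated eye of 3 of 5 mice here, against 7 of 8 in batch 1. Whether its change differed between batches was not tested.

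In Sarm.KO retinas 9 of 10 members passed limma between 6 IL1A+TNF and 6 PBS retinas, 8 higher and Nqo1 lower, where 43.5% of all genes passed (21.3% higher). The fit held the retinas of both batches with a batch term, so its estimate of the spread was shared with the WT retinas of day 2. Gclc did not pass (0.03, 95% interval −0.05 to 0.11). The log2 fold changes were 1.31 for Mt2 (SE 0.28, limma adjusted p = 9.1e-05), 1.26 for Gsr (SE 0.20, limma adjusted p = 7.28e-07), 1.07 for Mt1 (SE 0.24, limma adjusted p = 2.02e-04) and 0.78 for Mt3 (SE 0.17, limma adjusted p = 1.08e-04). Those of Txnrd1, Nfe2l2, Gclm, Srxn1 and Nqo1 were 0.56, 0.42, 0.30, 0.25 and −0.53 on the same scale. With 1 mouse left out Txnrd1 ranged from 0.35 to 0.68 and passed each time. Gclm did not pass without the retinas with lens genes (0.23, limma adjusted p = 0.0501) or in batch 2 alone (0.30, limma adjusted p = 0.0637). It also did not pass without mouse 61924 (0.19, limma adjusted p = 0.112) or 61926 (0.18, limma adjusted p = 0.125). Srxn1 did not pass without 61924 (0.15, limma adjusted p = 0.126). Nqo1 did not pass without 61924 (−0.41, limma adjusted p = 0.115) or in batch 2 alone (−0.53, limma adjusted p = 0.0570). In batch 2 alone 30.8% of all genes passed, and 36.9% without the retinas with lens genes.

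These averages covered very different mice. Gsr in the treated and the PBS eye was at 131 and 24.3 CPM in mouse 61924, 125 and 23.8 CPM in mouse 61926, 58.1 and 21.9 CPM in mouse 61765, 46.5 and 34.2 CPM in mouse 61564, 38.7 and 22.1 CPM in mouse 62221, and 32.5 and 32.6 CPM in mouse 61561. Mt2 was at 239 and 37.9, 242 and 44.7, 134 and 28.1, 80.3 and 73.2, 78.0 and 60.7, and 88.6 and 92.8 CPM in the same order. The treated eyes of mice 61924 and 61926 were above all other retinas of the series compared here in Gsr and Mt2, and in mouse 61561 the eyes hardly differed. Txnrd1 was at 186 and 194 CPM in the treated eyes of these 2 mice and at 66.4 to 85.2 CPM in the other 4, which overlapped the PBS eyes at 62.1 to 75.3 CPM. Mt3 was at 17.9 and 21.7 CPM in the 2 and at 7.31 to 12.2 CPM in the other 4.

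Without these 2 mice, a choice made after seeing the values, 1 of 10 members passed in Sarm.KO retinas, and that was Gsr, while the share of all genes that passed went from 43.5% to 4.86%. The log2 fold changes were then 0.66 for Mt2 (limma adjusted p = 0.208), 0.52 for Mt1 (limma adjusted p = 0.264), 0.28 for Mt3 (limma adjusted p = 0.311), 0.16 for Nfe2l2 (limma adjusted p = 0.295), 0.09 for Txnrd1 (limma adjusted p = 0.680) and −0.52 for Nqo1 (limma adjusted p = 0.148). Those of Gclm and Srxn1 were 0.035 (limma adjusted p = 0.868) and 0.075 (limma adjusted p = 0.631). With mouse as a fixed block 0 of 10 members and 0% of all genes passed (5374 genes had an unadjusted p under 0.05), although the sizes were near those of all 6 mice (1.29 for Mt2 and 1.32 for Gsr), with limma adjusted p of at least 0.136. The 2 mice also differed in their marker sums. Their treated eyes had neutrophil sums of 318 and 291 CPM and ganglion cell sums of 97.3 and 80.0 CPM, against 46.6 to 132 CPM and 276 to 602 CPM in the other 4. Amacrine and horizontal cell sums were 80.2 and 101 CPM against 302 to 462 CPM. Erythrocyte sums were 89.5, 45.5 and 73.9 CPM in the treated eyes of mice 61924, 61926 and 61765, against 18.4 to 21.9 CPM in the other 3. The treated eye of mouse 61926 also had a lens sum of 5186 CPM. The PBS eyes of mice 61561 and 61564 had neutrophil sums of 64.1 and 55.3 CPM, against 2.00 to 9.31 CPM in the other 4 PBS eyes, and these were also the PBS eyes with the highest Gsr, Mt1 and Mt2. The 3 Sarm.KO mice with the highest treated Gsr, Mt2 and Mt3 levels were the 3 females, at 58.1 to 131 CPM for Gsr against 32.5 to 46.5 CPM in the 3 males. In WT IL1A+TNF retinas of this batch the sexes overlapped, with 40.6 to 85.5 CPM in 3 females and 37.1 to 68.6 CPM in 3 males for Gsr, 71.9 to 98.2 and 48.8 to 118 CPM for Mt2, and 7.12 to 11.3 and 5.64 to 10.9 CPM for Mt3. Sex entered the fit as a term common to all groups. The part of sex and of the marker sums in the spread of the members was not tested.

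**Figure D5:**
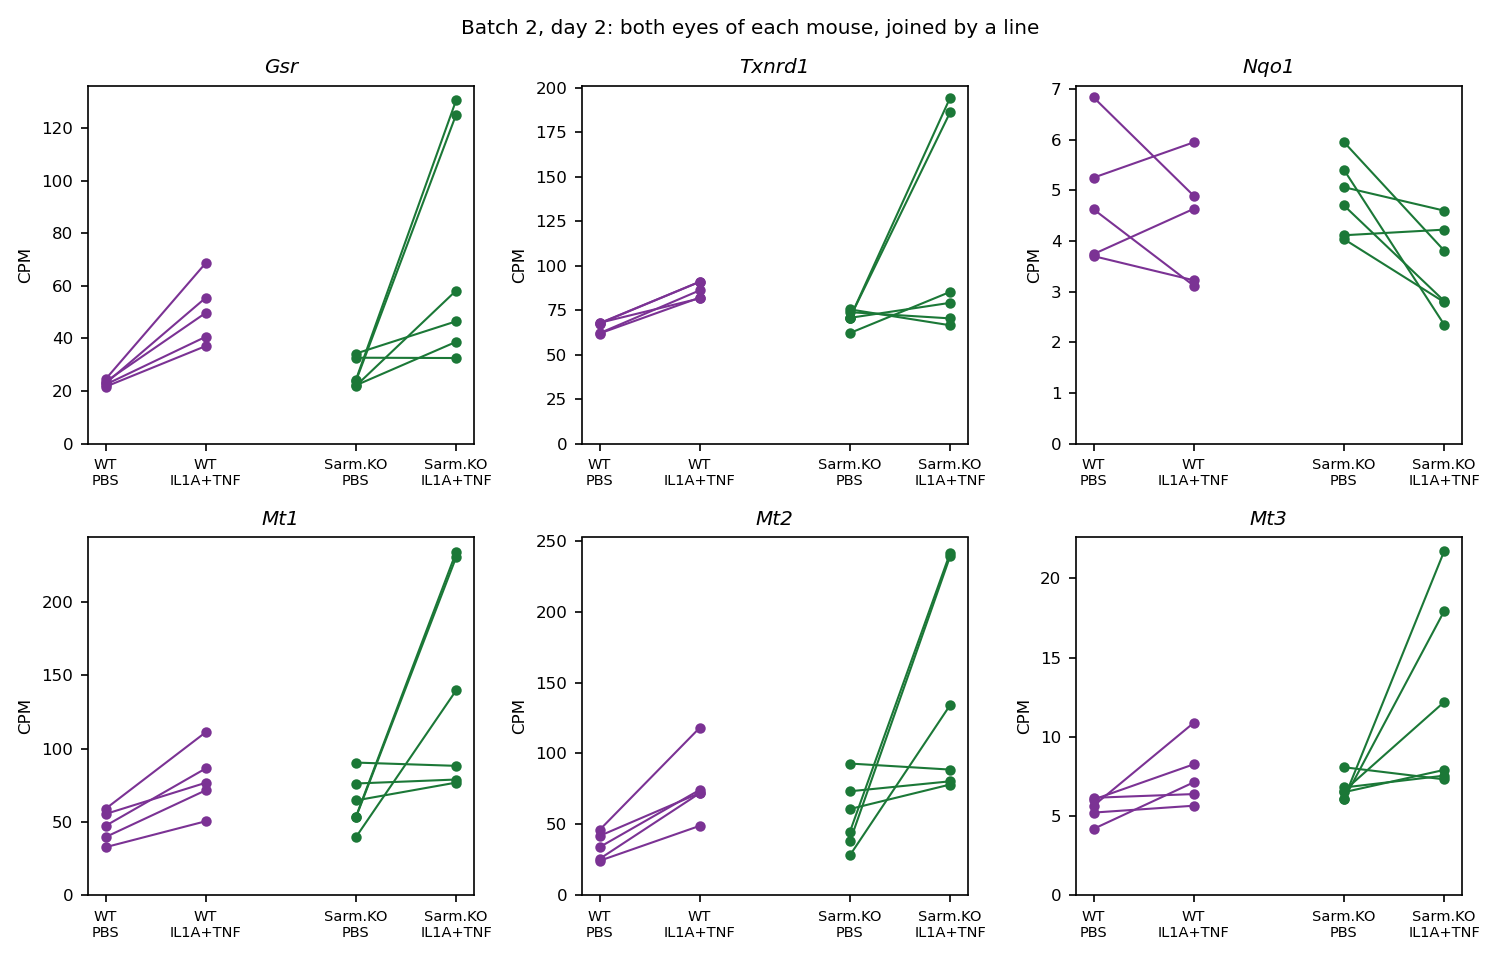
Level of 6 members in both eyes of the 5 WT and 6 Sarm.KO mice of batch 2 with paired eyes, in CPM on the vertical axis, with PBS and IL1A+TNF eyes of a mouse joined by a line. Lines of 2 Sarm.KO mice rise to 131 and 125 CPM in Gsr, while another stays near 32.5 CPM.

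Genotype was compared next. In PBS retinas 0 of 10 members differed between Sarm.KO and WT by limma, edgeR or DESeq2, and 0.0397% of all genes did. Mt2 (log2 difference 0.67, 95% interval 0.15 to 1.19, p = 0.0126, limma adjusted p = 0.866) and Mt1 (0.45, 0.0038 to 0.91, p = 0.0481, limma adjusted p = 0.989) had an unadjusted p under 0.05, as did 984 of all genes. The 6 Sarm.KO PBS retinas were at 28.1 to 92.8 CPM for Mt2 (median 52.7) and overlapped the 5 WT PBS retinas of the batch.

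In IL1A+TNF retinas 2 of 10 members were higher in Sarm.KO than in WT (14.8% of all genes called, 4.04% higher). Mt3 was at 7.31 to 21.7 CPM (median 10.05) in Sarm.KO and 5.64 to 11.3 CPM (median 7.69) in WT of batch 2, a log2 difference of 0.57 (SE 0.15, limma adjusted p = 0.00674). Mt2 was at 78.0 to 242 CPM (median 111) and 48.8 to 118 CPM (median 73.1), a log2 difference of 0.70 (SE 0.25, limma adjusted p = 0.0479). Mt1 did not pass in limma (0.59, limma adjusted p = 0.0593) but did in DESeq2 (adjusted p = 0.0308) and in edgeR (adjusted p = 0.0441), which each called 3 of 10 members. The 14.8% of all genes is that of limma, and the shares called by DESeq2 and edgeR are not given here. In Mt2 and Mt3, 3 of 6 Sarm.KO retinas exceeded all WT retinas of the batch and the rest overlapped them. Leaving out 1 mouse gave 0 calls without 61924 or 61926, 1 call without Sarm.KO mouse 61765 or WT mouse 61720, 61721, 61722 or 61927, 2 calls without WT mouse 61719, and 3 calls without 61561, 61564, 62221 or 62224. Shares of all genes in the fits with 1 mouse left out are not given here. Neither call held without the retinas with lens genes (Mt3 0.46, limma adjusted p = 0.0535; Mt2 0.70, limma adjusted p = 0.123), without both 61924 and 61926 (Mt3 0.18, limma adjusted p = 0.588; Mt2 0.24, limma adjusted p = 0.743) or in batch 2 alone (0.55 and 0.73, limma adjusted p = 0.235 and 0.284). The share of all genes called fell as well, from 14.8% to 7.66% without the retinas with lens genes, 0.753% without both mice and 0.656% in batch 2 alone.

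The interaction of genotype and treatment tests whether the response itself differed. It was called for 0 of 10 members, where limma called 8.75% of all genes (3.1% without the retinas with lens genes and 0% without mice 61924 and 61926, with 2426 genes at an unadjusted p under 0.05), and none had an unadjusted p under 0.05. edgeR and DESeq2 called 0 of the members and 181 and 430 of all genes. The largest interaction was that of Mt3, 0.39 on the log2 scale (95% interval −0.0032 to 0.78, limma adjusted p = 0.224), which rose to 0.58 with limma adjusted p = 0.0420 without mouse 61561. For Mt2 the interval was −0.60 to 0.67 and for Gsr −0.20 to 0.70, and both intervals include 0.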

How the data were processed

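The authors isolated total RNA from whole retinas, made mRNA libraries, aligned 150 bp read pairs to mm10 with STAR 2.7.9a and counted read pairs per gene with featureCounts (Subread 2.0.1), and the deposited values are raw counts for 37315 genes in 109 retinas. The strand setting of the counting is not given in the sources used here. Reads of Gclm, Txnrd1 and Mt2, which overlap genes on the other strand in GENCODE M21, may therefore hold reads of those genes, and Nfe2l2, Gclm, Txnrd1 and Gsr also overlap a gene on their own strand. Groups came from the sample labels, and the day from their time entry (2, 14 or 35 days), although the extraction text of the labels names only 2 days for all samples. The members and the pathway and marker lists were chosen with earlier results of these data known.

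Counts were scaled with TMM in edgeR 4.0.16 under R 4.3.3, filtered with filterByExpr (minimum count 10, minimum total 15, large groups from 10, proportion 0.7) and tested with voom and limma 3.58.1. Sex was a term and mouse a random block (duplicateCorrelation, statmod 1.5.0, 2 rounds), since both eyes of 45 mice were used. Day 2 of batch 1 (58 retinas, 35 mice, correlation 0.0515), day 14 (correlation 0.284) and day 35 (correlation 0.0794) had a fit each. A fit of the 86 retinas of batch 1 compared days (correlation 0.0884). A fit of the 81 retinas of day 2 with a batch term compared genotypes (correlation 0.00525), and the 23 retinas of batch 2 were fitted alone (correlation −0.0763). Benjamini-Hochberg adjusted p under 0.05 over all genes tested counts as called. The test was first run on simulated counts with known changes, in the day 2 design of batch 1 only. The simulated counts held no mouse effect and the same setting of spread for all genes, so that run does not cover the other fits.

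Levels are CPM with TMM factors. Relative counting error is larger for members with low counts, such as Nqo1 with a lowest count of 57. Its part in the spread between retinas was not tested. Libraries of a group all differed beyond sampling noise (chi-square over genes of at least 3.08 per gene). Exon lengths came from GENCODE M21 and promoters from RefSeq for GRCm38.p6, where 8 of the 10 members had an entry. Correlations used 100000 permutations. Named from each list were the 3 genes with the smallest adjusted p after IL1A+TNF at day 2, beside Hmox1, Keap1, Slc7a11, Mtf1, Slc30a1 and Slc39a14. Gpx3 and Abcc3 after TNF were chosen after their values were seen. Alternatives were other filters, scalings and tools (edgeR, DESeq2 1.42.0), a fit without sex, a fit without the mouse block or with fixed mouse terms, other sets of samples, and leaving out in turn each treated mouse of a comparison, but in batch 1 not the other mice. Leaving out retinas with summed lens genes over 100 CPM, 2 Sarm.KO mice, and WT mouse 61719 between genotypes was added after the data were seen.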

Additional observations from a re-analysis of the deposited data

Results flagged for a closer look

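Among 110 combinations of a member and a group of 4 to 10 retinas, 7 held a retina whose gap to its neighbour was over Dixon's critical value, and chance gives about 1 in 20. They came from 6 retinas. The Gsr level of 102 CPM in a WT IL1A+TNF retina of batch 1 stood above the next at 67.2 CPM, and this retina also had the highest neutrophil sum of its group (450 CPM). A WT IL1A+TNF retina of batch 2 was highest in both Nfe2l2 (61.3 CPM, next 52.9 CPM) and Txnrd1 (112 CPM, next 90.9 CPM), with the highest neutrophil sum of that group (285 CPM). Mt3 was highest in a Sarm.KO PBS retina (8.07 CPM, next 6.79 CPM), the retina of mouse 61561 with summed lens genes of 4529 CPM and the highest neutrophil sum of its group (64.1 CPM). Txnrd1 was lowest in another Sarm.KO PBS retina (62.1 CPM, next 70.5 CPM). Srxn1 was highest in a TNF retina of day 2 (66.2 CPM, next 59.7 CPM) and Gclm in an IL1A retina (64.2 CPM, next 54.3 CPM), and these retinas also had the highest neutrophil sums of their groups (16.7 and 154 CPM). The part of the marker sums in these values was not tested.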

How the results depend on the processing

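No change of a member reversed its direction past the threshold under any alternative run. Of the member changes recomputed, 2403 kept their side of the threshold, 68 lost a call and 20 gained it. All 10 calls after IL1A+TNF in batch 1 held with each of its treated mice left out. With mouse as a fixed replicate block, which uses only paired eyes, 3 members (Gsr, Mt1 and Mt2) were called after IL1A (against 5), 0 in Sarm.KO (against 9) and 8 in WT of batch 2 (against 4), with 6.76%, 0% and 29.6% of all genes called (against 21.4%, 43.5% and 20.9%). After IL1A+TNF in batch 1 this block lost the calls of Gclc and Nqo1, with 37.1% of all genes called (against 50.4%). Without the retinas with lens genes, 1 member departed from additivity (against 4) and 0 differed between Sarm.KO and WT after IL1A+TNF (against 2). The latter count was 1 without a filter on low counts, 1 with DESeq2 size factors, 0 in batch 2 alone and 0 without mice 61924 and 61926, which also left 1 call of 9 in Sarm.KO, where the share of all genes called went from 14.8% to 0.753% between genotypes and from 43.5% to 4.86% in Sarm.KO. With 1 mouse left out, the calls ranged from 4 to 5 after IL1A, 6 to 9 in Sarm.KO, 1 to 4 in WT of batch 2, 0 to 3 between genotypes after IL1A+TNF and 0 to 1 for the interaction. Shares of all genes in the fits with 1 mouse left out are not given here. The cause of these shifts in calls was not tested. Every member had at least 57 counts in each retina, and what limited the precision of each fit was not tested.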

Other observations

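2 further lists hold genes of pathways that are also known to act on metallothionein genes. Of 9 STAT3-responsive genes tested, 8 rose and none fell after IL1A+TNF at day 2 (median log2 fold change 1.33, against −0.02 over all genes), where 24.9% of all genes were called higher, and 8 rose after IL1A, where 12% were. Bcl3 rose by 2.08 (SE 0.20, limma adjusted p = 4.82e-13), Socs3, the feedback inhibitor of STAT3, by 1.77 (SE 0.21, limma adjusted p = 2.14e-10) and Gfap, the glial intermediate filament, by 1.44 (SE 0.16, limma adjusted p = 1.15e-11). Of 9 glucocorticoid-responsive genes, 1 rose and 4 fell after IL1A+TNF (median −0.11), where 50.4% of all genes were called, among them Dusp1 at −0.34 (SE 0.071, limma adjusted p = 5.48e-05), Sgk1 at −0.30 (SE 0.054, limma adjusted p = 3.64e-06) and Per1 at −0.14 (SE 0.050, limma adjusted p = 0.0179). The part of these pathways in the metallothionein levels was not tested. Hmox1 rose in each set of IL1A+TNF retinas, with log2 fold changes of 4.05 in WT of batch 1, 4.14 in WT of batch 2 (limma adjusted p = 9.22e-05) and 3.73 in Sarm.KO (limma adjusted p = 4.97e-11), and by 2.36 after IL1A (limma adjusted p = 3.6e-13), while after TNF it was at 0.71 (limma adjusted p = 0.355).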
